A study of Mus musculus with 5 samples.

Results

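The genes described here are 10 regulators of the G1 phase of the cell cycle, namely the D cyclins *Ccnd1* and *Ccnd2*, the E cyclins *Ccne1* and *Ccne2*, and the inhibitors of cyclin-dependent kinases (CDKs) *Cdkn1a*, *Cdkn1b*, *Cdkn1c*, *Cdkn2a*, *Cdkn2b* and *Cdkn2c*. They were picked by name from a table of 21835 mouse genes, with earlier results of these data known. All 10 were found in it. The table holds bulk RNA sequencing of cultured cancer-associated fibroblasts (CAFs) from mouse lung. CAF-vec (2 samples, genotype WT control) are CAFs that carry the vector, and CAF-200 (3 samples, genotype miR-200 overexpression) are CAFs in which a lentivirus expresses the clustered miRNAs miR-200b, miR-200a and miR-429. Per the labels, the lentiviral construct carried neomycin resistance and cells were selected with G418, whereas the study's methods name a hygromycin vector introduced into normal lung fibroblasts. The study's results and its RNA sequencing methods name CAFs as the cells that carried the vectors. The methods also describe RNA in triplicate for each group, and 2 CAF-vec samples were analysed here. Both groups grew in alpha-MEM with fetal bovine serum. The promoter of the construct, the number of clones and the mice that the CAFs came from are not given in the sources used here. Since nothing says that the samples came from separate cultures, *p* values measure only the spread between these samples, which may be technical.

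Values are CPM (counts scaled to a common library total) as normalized by the authors, and sequencing depth is unknown. All 10 genes reached the level required for testing, a minimum of 0.5 CPM in 2 or more samples that 12175 genes met. Fold changes are on log2(CPM + 0.5), with a positive value meaning higher in CAF-200, and *p* values come from limma, adjusted by the Benjamini-Hochberg method across the genes tested. A gene is said to have risen or fallen where its adjusted *p* was under 0.01. The cells carried the mRNA of fibroblasts, and all 10 fibroblast markers examined were detected in every sample. Summed, they reached 15408 CPM in CAF-vec 1, against 8416 to 9091 CPM elsewhere, so CAF-vec 1 stood apart. Of the 10, *Dcn* (decorin), *Lum* (lumican) and *Thy1* rose in CAF-200, with log2 fold changes of 2.75, 2.82 and 1.46. None fell, and 5 had a negative log2 fold change that did not pass, the most negative being -0.91 for *Col1a1*. Over all genes tested 4.45% rose and 5.57% fell. Under the alternatives described at the end, the adjusted *p* (limma) reached 0.0127 for *Dcn*, 0.0147 for *Lum* and 0.0283 for *Thy1*. All 8 epithelial markers were under 0.5 CPM in every sample. Of 5 endothelial markers only *Kdr* was tested, and it fell. Of 5 leukocyte markers, *Ptprc*, *Adgre1* and *Cd3e* were at or near 0, while *Lyz2* rose, with a CAF-vec mean of 1.55 ± 0.624 CPM (SD, n = 2) and a CAF-200 mean of 7.04 ± 0.510 CPM (SD, n = 3), and the summed leukocyte markers reached 3.36 and 7.004 CPM in CAF-vec against 9.91 to 10.5 CPM in CAF-200. *Cd68*, the remaining one, had overlapping groups (log2 fold change -0.14, limma adjusted *p* = 0.758), so the difference in the sum lay in *Lyz2*. The part of these markers in the results below was not tested. In RNA from a bulk culture, fewer cells of a kind and less RNA per cell cannot be told apart. *Zeb1*, a well-known target of miR-200, measured 43.5 and 50.7 CPM in CAF-vec against 37.8, 37.5 and 34.1 CPM in CAF-200 (log2 fold change -0.36, limma adjusted *p* = 0.0504), and so missed the threshold. By quantitative PCR, the study reported lower *Zeb1* and overexpressed miR-200a, miR-200b and miR-429 in CAF-200.

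A cell leaves G1 when cyclin-dependent kinases phosphorylate the retinoblastoma protein and its relatives, which frees the E2F transcription factors to switch on the genes of DNA synthesis. D cyclins, made in response to growth factors, activate CDK4 and CDK6, and E cyclins, themselves products of E2F, activate CDK2 near the start of S phase. The INK4 inhibitors (the *Cdkn2* genes) bind CDK4 and CDK6, and the CIP/KIP inhibitors (the *Cdkn1* genes) bind CDK2 complexes. In cultured fibroblasts the *Cdkn2a* and *Cdkn2b* products are known to accumulate with stress and passage, and *Cdkn1a* is a classical target of p53.

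The overexpressed miRNAs are shown because they define the CAF-200 group. A miRNA recognises mRNAs mainly through its seed, bases 2 to 8 from the 5′ end, printed in capitals (RefSeq, GRCm38.p6, chromosome 4, minus strand). The sequences of miR-200b and miR-429 share a seed, and that of miR-200a differs from it.
mmu-miR-200b-3p: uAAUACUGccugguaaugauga
mmu-miR-429-3p: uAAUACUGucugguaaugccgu
mmu-miR-200a-3p: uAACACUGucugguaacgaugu

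Of the 10 genes, 5 held a 7-base match to either seed in their longest 3′-UTR in GENCODE M21, against 30.3% of 12055 tested genes with an annotated 3′-UTR. *Cdkn1b* held the match to miR-200b and miR-429 (CAGTATT), found in 15.7% of those genes. *Cdkn1a*, *Ccnd1*, *Ccnd2* and *Ccne2* each held 1 match to miR-200a (CAGTGTT), found in 20.8%. No match was in the 3′-UTRs of *Ccne1*, *Cdkn1c*, *Cdkn2a*, *Cdkn2b* and *Cdkn2c*, which run from 264 to 755 bases and so are all shorter than the median of 1174 bases. The matches are printed in capitals within 30 bases of the transcript, 5′ to 3′, so that they can be set beside the fold changes that follow.
*Cdkn1b* (position 183 of 3439): gggactataatgCAGTATTtgcaccccaag
*Cdkn1a* (position 1082 of 1334): ctgatcctttctCAGTGTTgaataccgtgg
*Ccnd1* (position 950 of 2676): gctagctggaggCAGTGTTgctggtgtgtg
*Ccnd2* (position 2922 of 5173): cctgcagctagcCAGTGTTtatccagagct
*Ccne2* (position 349 of 1681): ttctttaaaattCAGTGTTactgtatttct
On GRCm38 the 7 matching bases lie at chr6:134922257-134922263 for *Cdkn1b*, chr17:29100475-29100481 for *Cdkn1a*, chr7:144931651-144931657 for *Ccnd1*, chr6:127127407-127127413 for *Ccnd2* and chr4:11203447-11203453 for *Ccne2*. *Ccnd1* and *Ccnd2* are on the minus strand and the other 3 genes on the plus strand. The match of *Ccne2* is the only one of the 5 followed by an A, the base that extends a seed site in most descriptions of miRNA targeting. Of the genes with a match, *Ccne2* rose and the other 4 did not pass the test. A match is a description of letters, and binding was not measured.

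Among the 10 genes, *Ccne1* and *Ccne2* rose in CAF-200 and *Cdkn2b* fell, each by more than 1 on the log2 scale. For comparison, 10.0% of all genes tested passed the adjusted *p* of 0.01, 4.45% higher and 5.57% lower, and 2.37% were past both thresholds upwards and 2.35% downwards. After centring on each sample's median, the genes passing were 720 higher and 543 lower, against 542 and 678 as deposited. *Cdkn2a* missed the threshold at an adjusted *p* of 0.0136 and was lower at 0.05, a threshold that 30.5% of genes tested passed, 11.9% higher and 18.6% lower. The CAF-200 values lay on the same side of both CAF-vec values for 7 of the 10 genes, and this held for 61.6% of all genes tested. The median log2 fold change was -0.17 over the 10 genes and -0.094 over all genes tested. When any 1 of the 3 CAF-200 samples was left out, none of the 10 genes passed in limma. In those fits 0 or 1 of all genes tested passed. In each of them 2 of the 10 genes were higher and 2 lower at an unadjusted *p* under 0.05 (limma). Of all genes, 12.4% to 12.8% were higher and 19.1% to 21% lower at that level.

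**Figure D1:**
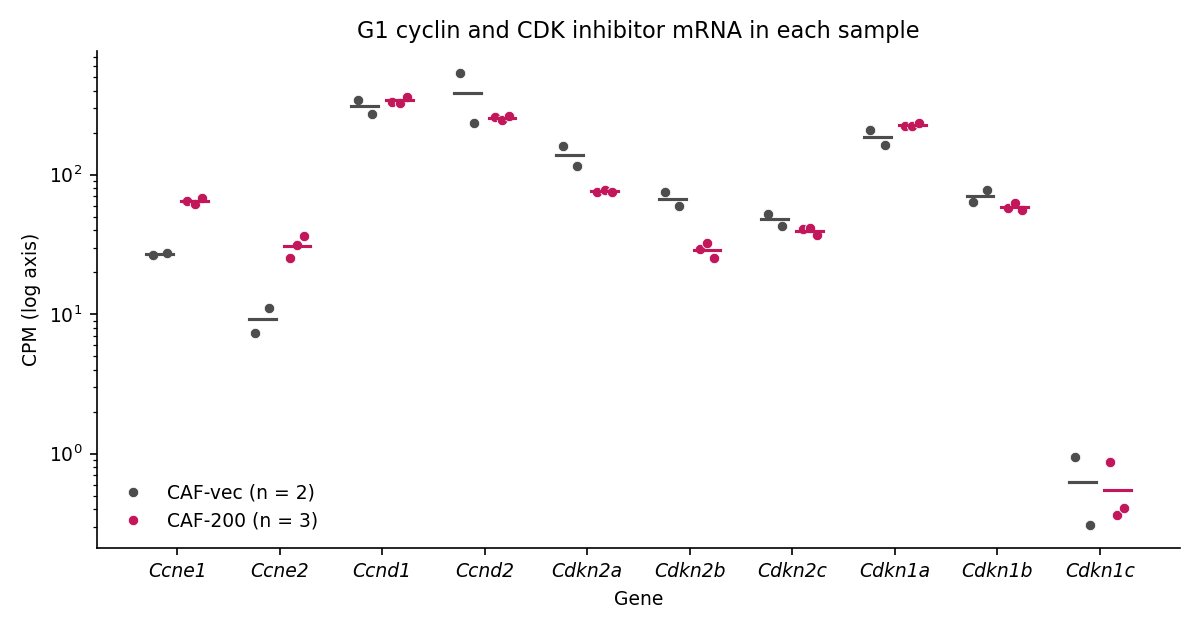
CPM of the 10 genes (vertical log axis) in each CAF-vec sample (grey) and CAF-200 sample (red), with a line at each group mean. *Ccne1* and *Ccne2* lie higher in every CAF-200 sample and *Cdkn2a* and *Cdkn2b* lower, while the CAF-vec points of *Ccnd2* lie far apart, at 533.5 and 234.1 CPM.

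Both E cyclins rose in CAF-200. *Ccne1* (ENSMUSG00000002068, chromosome 7, 38097984 to 38107534, minus strand), which encodes cyclin E1, measured 26.8 and 27.5 CPM in CAF-vec against 65.1, 61.8 and 67.8 CPM in CAF-200. Both groups were tight, and the lowest CAF-200 value was far above the highest CAF-vec value. Its mean was 27.1 ± 0.507 CPM (SD, n = 2) in CAF-vec against 64.9 ± 3.03 CPM (SD, n = 3), 2.39-fold, for a log2 fold change of 1.24 (standard error 0.0853, 95% interval 1.03 to 1.45, limma adjusted *p* = 0.001935). The CAF-vec samples differed in *Ccne1* by 0.037 on the log2 scale, a smaller gap than in all but 7.15% of the genes tested. *Ccne2* (ENSMUSG00000028212, chromosome 4, 11191351 to 11204779, plus strand), which encodes cyclin E2, measured 7.35 and 10.995 CPM in CAF-vec against 25.3, 31.4 and 36.4 CPM in CAF-200. The groups did not overlap, and both were more spread than for *Ccne1*. The rise was 3.39-fold in the means, with a log2 fold change of 1.72 (standard error 0.220, 95% interval 1.17 to 2.26, limma adjusted *p* = 0.00575). *Ccne2* overlaps *Ints8*, a gene on the opposite strand, over 5622 bases, which measured 32.6 and 33.4 CPM in CAF-vec against 30.8 to 31.98 CPM in CAF-200. Without CAF-200 replicate 1, 2 or 3 the adjusted *p* was 0.0223, 0.0215 and 0.0257 for *Ccne1* and 0.0253, 0.0376 and 0.0373 for *Ccne2*, with log2 fold changes of at least 1.21 and 1.60. With the CAF-200 samples against CAF-vec 1 or CAF-vec 2 alone, *Ccne2* had a log2 fold change of 1.99 or 1.44.

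None of the D cyclins passed the test. *Ccnd1* (ENSMUSG00000070348, chromosome 7, 144929931 to 144939925, minus strand), which encodes cyclin D1, measured 342.6 and 274.8 CPM in CAF-vec against 334.4, 327.1 and 363.7 CPM in CAF-200, so the groups overlapped. The log2 fold change of *Ccnd1* was 0.15 (standard error 0.129, 95% interval -0.16 to 0.47, limma adjusted *p* = 0.3895), and it was -0.0051 without CAF-vec 2. *Ccnd1* overlaps *LTO1* on the opposite strand, which stood at 22.7 to 23.9 CPM in CAF-vec against 15.9 to 16.8 CPM in CAF-200. *Ccnd2*, *Cdkn1a* and *Cdkn1c* also overlap genes on the opposite strand, which are not protein-coding. *Ccnd2* (ENSMUSG00000000184, chromosome 6, 127125162 to 127152193, minus strand), which encodes cyclin D2, measured 533.5 and 234.1 CPM in CAF-vec against 259.7, 245.6 and 263.5 CPM in CAF-200. CAF-vec 1 was high and the other 4 samples were close together. The gap between the CAF-vec samples, 2.28-fold, was larger than in 97.8% of the genes tested, whereas the CAF-200 samples lay within 1.07-fold. Its log2 fold change was -0.46 (standard error 0.332, 95% interval -1.28 to 0.36, limma adjusted *p* = 0.319), 0.13 without CAF-vec 1 and -1.06 without CAF-vec 2 (adjusted *p* = 1.723e-05, in a fit where 50.6% of all genes passed), so the direction rested on CAF-vec 1. The remaining D cyclin gene, *Ccnd3*, which is not among the 10 genes, measured 182.0 and 149.0 CPM in CAF-vec against 120.0, 119.8 and 123.6 CPM in CAF-200 (log2 fold change -0.44, limma adjusted *p* = 0.0328).

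Of the 3 INK4 genes among the 10, *Cdkn2b* fell, and *Cdkn2a* and *Cdkn2c* did not pass the test. *Cdkn2b* (ENSMUSG00000073802, chromosome 4, 89306299 to 89311039, minus strand), which encodes p15INK4b, measured 75.3 and 59.4 CPM in CAF-vec against 29.6, 32.2 and 25.2 CPM in CAF-200. Each CAF-200 value was well below the lower CAF-vec value. The mean was 67.4 ± 11.2 CPM (SD, n = 2) in CAF-vec against 29.0 ± 3.53 CPM (SD, n = 3), for a log2 fold change of -1.20 (standard error 0.153, 95% interval -1.58 to -0.82, limma adjusted *p* = 0.0057). Without CAF-200 replicate 1, 2 or 3, the adjusted *p* of *Cdkn2b* was 0.035, 0.0303 and 0.0361. *Cdkn2a* (ENSMUSG00000044303, chromosome 4, 89274471 to 89294653, minus strand) lies 11645 bases from *Cdkn2b* on the same strand. It encodes 2 unrelated proteins from shared exons, the CDK inhibitor p16INK4a and p19ARF, which stabilises p53, and a value for the whole gene does not tell them apart. *Cdkn2a* measured 160.4 and 114.7 CPM in CAF-vec against 75.0, 77.7 and 75.7 CPM in CAF-200. The CAF-200 samples lay within 1.04-fold of each other and below both CAF-vec samples, which differed 1.40-fold. The log2 fold change of *Cdkn2a* was -0.83 (standard error 0.151, 95% interval -1.20 to -0.46, limma adjusted *p* = 0.0136), -0.59 without CAF-vec 1 (adjusted *p* = 0.000362) and -1.07 without CAF-vec 2 (adjusted *p* = 1.248e-05), past the threshold in both. In these fits 29.9% and 50.6% of all genes tested passed, and the single CAF-vec sample was assumed to vary like the CAF-200 samples. Without CAF-200 replicate 1, 2 or 3, *Cdkn2a* had an adjusted *p* of 0.0613, 0.0610 and 0.0696. After quantile normalization it was -0.72 with an adjusted *p* of 0.009085 (limma), past the threshold.

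*Cdkn2c* (ENSMUSG00000028551, chromosome 4, 109660876 to 109667189, minus strand), which encodes p18INK4c, measured 52.6 and 43.0 CPM in CAF-vec against 40.6, 41.2 and 37.0 CPM in CAF-200. The groups did not overlap but came close, and the log2 fold change was -0.26 (standard error 0.118, 95% interval -0.55 to 0.028, limma adjusted *p* = 0.139). *Cdkn2d*, the remaining INK4 gene and not among the 10, measured 53.3 and 32.9 CPM in CAF-vec against 34.9, 33.1 and 29.4 CPM in CAF-200 (log2 fold change -0.37, limma adjusted *p* = 0.228), with overlapping groups. In each of the 4 INK4 genes CAF-vec 1 was the highest sample. The log2 fold change of *Cdkn2c* was -0.12 (limma adjusted *p* = 0.275) without CAF-vec 1 and -0.41 (adjusted *p* = 0.00355) without CAF-vec 2, and that of *Cdkn2d* was -0.022 (adjusted *p* = 0.877) and -0.71 (adjusted *p* = 0.00058). In these fits with 1 CAF-vec sample, 29.9% and 50.6% of all genes passed.

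A promoter window of 250 bases before to 50 after the gene start (RefSeq, GRCm38.p6) was on hand for 6 of the 10 genes, in 9 windows. The windows were searched on both strands for 4 forms of the E2F motif, TTTGGCGC, TTTCCCGC, TTTCGCGC and TTTGCCGC, since E2F factors and their targets are described below. *Cdkn2a* held a match, at its upstream start, from which the p19ARF transcript begins, and the other 8 windows, including those of *Ccne1* and *Cdkn2b*, held none of these letters. Of all 32851 windows, 2.26% held a match. The stretch of *Cdkn2a* is shown with the motif in capitals, at position -99 from the start (chr4:89294700-89294729, minus strand).
*Cdkn2a*: ctctgggaagcTTTCCCGCgcgactgggga

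None of the CIP/KIP genes passed the test. *Cdkn1a* (ENSMUSG00000023067, chromosome 17, 29090976 to 29100727, plus strand), which encodes p21, measured 208.2 and 162.3 CPM in CAF-vec against 222.0, 223.7 and 236.8 CPM in CAF-200. The CAF-200 samples lay above both CAF-vec samples, of which CAF-vec 1 was close to them. The log2 fold change of *Cdkn1a* was 0.31 (standard error 0.129, 95% interval -0.013 to 0.63, limma adjusted *p* = 0.122), 0.49 without CAF-vec 1 (adjusted *p* = 0.00101, where 29.9% of all genes passed) and 0.13 without CAF-vec 2. *Cdkn1b* (ENSMUSG00000003031, chromosome 6, 134920401 to 134925513, plus strand), which encodes p27, measured 63.7 and 77.8 CPM in CAF-vec against 57.5, 63.2 and 55.5 CPM in CAF-200. Its groups all but touched, and CAF-vec 2 was the highest sample. The difference in *Cdkn1b* was -0.26 on the log2 scale (standard error 0.120, 95% interval -0.56 to 0.035, limma adjusted *p* = 0.146), -0.40 without CAF-vec 1 (adjusted *p* = 0.00656) and -0.12 without CAF-vec 2. *Cdkn1c* (ENSMUSG00000037664, chromosome 7, 143458339 to 143461050, minus strand), the imprinted gene of p57, was barely detected, at 0.953 and 0.307 CPM in CAF-vec and 0.869, 0.365 and 0.405 CPM in CAF-200. Its samples were mixed between the groups. The log2 fold change of *Cdkn1c*, -0.081 (95% interval -0.91 to 0.74, limma adjusted *p* = 0.862), turned to 0.015 after centring on sample medians, 0.04 without CAF-200 replicate 2 and 0.0077 without CAF-200 replicate 3.

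**Figure D2:**
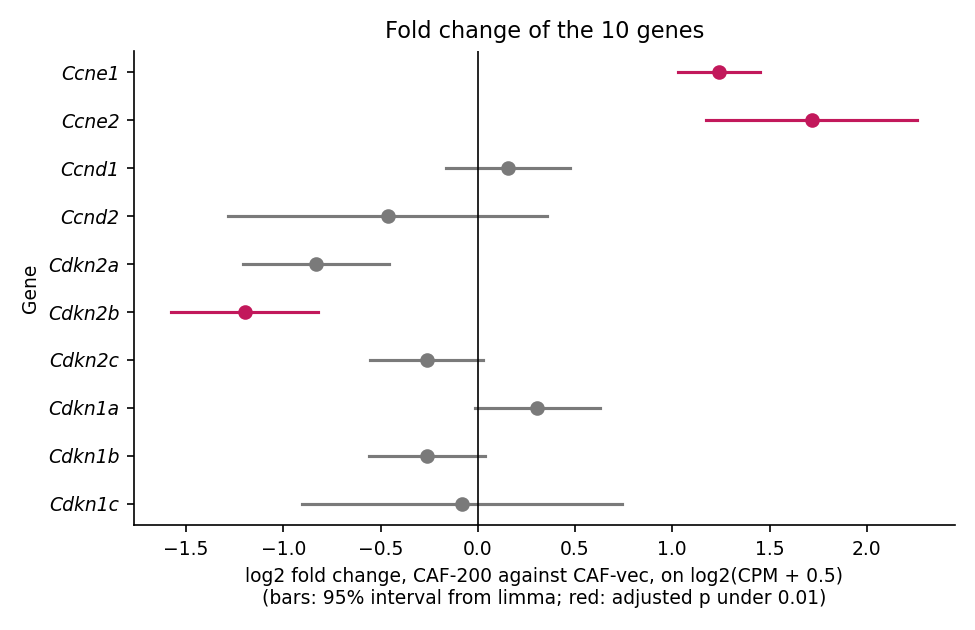
Log2 fold change of CAF-200 against CAF-vec on log2(CPM + 0.5) for each of the 10 genes, with bars for the 95% interval from limma over 2 CAF-vec and 3 CAF-200 samples. *Ccne1*, *Ccne2* and *Cdkn2b*, in red, have an adjusted *p* under 0.01, and the interval of *Cdkn2a* also lies below 0.

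Levels of different genes were compared as CPM per kb of exon, using the merged length of all annotated exons of a gene. In CAF-vec the order of the 10 genes was *Cdkn2a* (117.4 CPM per kb), *Ccnd1* (65.5), *Cdkn1a* (52.1), *Cdkn2b* (48.5), *Ccnd2* (40.8), *Cdkn2c* (17.8), *Cdkn1b* (15.5), *Ccne1* (10.2), *Ccne2* (2.62) and *Cdkn1c* (0.309). Among neighbours in this order, the ranges of *Ccnd1* and *Cdkn1a*, of *Cdkn1a* and *Cdkn2b*, of *Cdkn2b* and *Ccnd2*, and of *Cdkn2c* and *Cdkn1b* overlapped. Within each sample the order was the same in both CAF-vec samples for the first and second of these pairs, and it differed between them for the other 2 pairs. In CAF-200 *Ccnd1* stood first (72.6 CPM per kb), and *Cdkn2a* (64.9) and *Cdkn1a* (64.0) overlapped. *Ccnd2* (27.2), *Ccne1* (24.4), *Cdkn2b* (20.9), *Cdkn2c* (14.7), *Cdkn1b* (12.9), *Ccne2* (8.88) and *Cdkn1c* (0.268) followed, with overlap between *Cdkn2c* and *Cdkn1b*, whose order was the same in all 3 samples. *Ccne1* thus stood below *Cdkn2b* in CAF-vec and above it in CAF-200, where their nearest samples were both at 23.2 CPM per kb.

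Summed per kb, the E cyclins were 12.2 and 13.5 CPM per kb in CAF-vec and 31.7, 32.2 and 35.9 CPM per kb in CAF-200, a ratio of means of 2.60. *Ccne2* made up 17.3% and 23.4% of that sum in CAF-vec and 22.8%, 27.9% and 29.0% in CAF-200, and the ranges overlapped. The 3 D cyclins summed to 150.2 and 100.2 CPM per kb in CAF-vec against 109.2 to 119.3 CPM per kb in CAF-200. The level of D cyclins was 12.4 and 7.44 times that of E cyclins in the CAF-vec samples and 3.54, 3.39 and 3.32 times in the CAF-200 samples. The 4 INK4 genes summed to 244.6 and 177.6 CPM per kb in CAF-vec against 115.2 to 125.8 CPM per kb in CAF-200, and the 3 CIP/KIP genes to 73.1 and 62.9 against 75.5 to 79.0 CPM per kb. These sums are descriptions and were not tested.

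**Figure D3:**
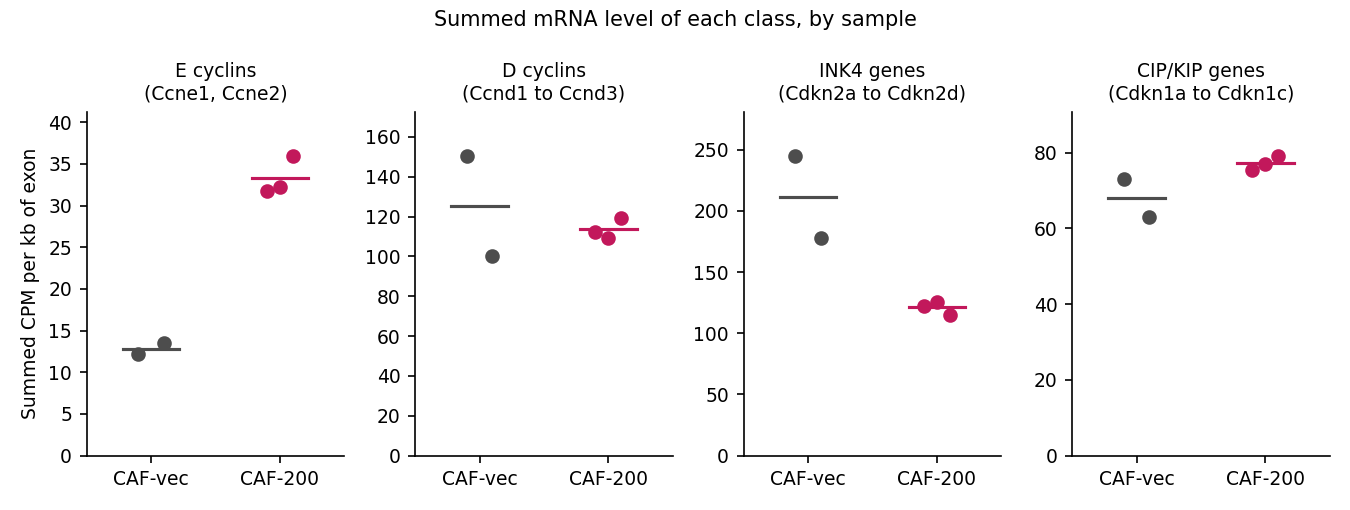
Summed CPM per kb of exon (vertical axes from 0) of the E cyclins, D cyclins, INK4 genes and CIP/KIP genes in each sample, with a line at each group mean. The 3 CAF-200 samples lie above both CAF-vec samples for the E cyclins and the CIP/KIP genes and below both for the INK4 genes, and the groups overlap for the D cyclins.

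The other genes of the pathway were described through lists of known members, which were chosen with earlier results of these data known. No gene of these lists passed when any 1 CAF-200 sample was left out, where 0 or 1 of all genes tested passed. Of 10 further genes of the G1 kinase machinery, a list that includes *Ccnd3* and *Cdkn2d*, *Cdk2* and *Cdc25a* rose and none fell, against 4.45% and 5.57% of all genes tested. *Cdk2*, the kinase partner of the E cyclins, measured 47.0 and 54.2 CPM in CAF-vec against 75.7, 78.7 and 81.1 CPM in CAF-200 (log2 fold change 0.63, limma adjusted *p* = 0.00884). *Cdc25a*, a phosphatase that activates CDK2, had a log2 fold change of 0.66 (limma adjusted *p* = 0.006975). The partners of the D cyclins, named after their values were seen, were *Cdk4* with a log2 fold change of -0.13 (limma adjusted *p* = 0.5075) and *Cdk6* with -1.05 (limma adjusted *p* = 0.0883). CAF-vec 1 and CAF-vec 2 had 20.1 and 7.83 CPM of *Cdk6*, against 5.17 to 7.15 CPM in CAF-200, so CAF-vec 1 was high and the other 4 samples lay close together. The median of the list was -0.15, against -0.094 over all genes tested.

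Of 13 pocket proteins and E2F factors, 4 rose and none fell, against the same background. They were *E2f8* (log2 fold change 1.47, limma adjusted *p* = 0.00589), which encodes an atypical E2F that represses transcription, *Rbl1* (0.71, adjusted *p* = 0.00657), which encodes the pocket protein p107, *E2f3* (0.65, adjusted *p* = 0.00998), an activating E2F, and *Tfdp1* (0.64, adjusted *p* = 0.00673), the partner with which E2Fs bind DNA. *Rb1*, the retinoblastoma gene, measured 6.65 and 7.84 CPM in CAF-vec against 10.2, 9.80 and 8.69 CPM in CAF-200 (log2 fold change 0.38, limma adjusted *p* = 0.0677). *E2f3* lay at the threshold, and its adjusted *p* was 0.0102 both with a pseudocount of 1 CPM and with at least 1 CPM in every sample, which left 3 genes passing. The median of the list was 0.40.

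Of 20 E2F targets that act at the entry into S phase, 12 rose, none fell and 8 did not pass. All 20 had a positive log2 fold change, from 0.41 to 1.65 with a median of 0.82, and 4.45% of all genes tested passed upwards. *Rrm2*, a subunit of ribonucleotide reductase, rose, with a CAF-vec mean of 89.0 ± 10.1 CPM (SD, n = 2) and a CAF-200 mean of 280.1 ± 7.49 CPM (SD, n = 3), with a log2 fold change of 1.65 (limma adjusted *p* = 0.00145). *Cdc6*, which loads the replicative helicase, had a log2 fold change of 1.52, and *Pcna*, the sliding clamp of DNA polymerases, one of 1.14, each with an adjusted *p* of 0.00254 (limma). *Chaf1a* was the only gene of the 20 whose groups overlapped, with CAF-vec 1 and CAF-vec 2 at 53.8 and 25.3 CPM against 44.0 to 53.8 CPM in CAF-200. None of the 20 genes passed without 1 CAF-200 sample, where 0 or 1 of all genes tested did. In each of the 3 fits 17 were higher at an unadjusted *p* under 0.05 (limma), against 12.4% to 12.8% of all genes. Against a single CAF-vec sample, with the spread taken from CAF-200, 20 passed without CAF-vec 1 and 17 without CAF-vec 2, where 13.3% and 19.4% of all genes tested passed upwards.

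The genes of G2 and M phase gave 0 of 14 past the adjusted *p* of 0.01 in limma, with 7 higher and 0 lower at an unadjusted *p* under 0.05, against 17.3% and 27.6% of all genes tested, and their median log2 fold change was 0.20. At an adjusted *p* under 0.05, 6 of the 14 were higher, against 11.9% of all genes tested. Against a single CAF-vec sample, 8 were higher without CAF-vec 1 and 7 without CAF-vec 2 at the adjusted *p* of 0.01, where 13.3% and 19.4% of all genes were. After quantile normalization 4 of the 14 rose, against 5.86% of all genes tested, and after centring on sample medians 2 did, against 5.91%. No test of the difference between this list and the S phase list was made. The study counted cells and reported that growth dropped marginally once CAFs overexpressed miR-200. Growth was not measured here, and how that drop relates to the higher E cyclins and S phase genes was not tested.

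Of 21 p53 pathway genes, *Ccng1* (log2 fold change 0.77, limma adjusted *p* = 0.00425) and *Eda2r* (1.30, adjusted *p* = 0.0056) rose and *Perp* (-1.98, adjusted *p* = 0.00254) fell. Over all genes tested 4.45% rose and 5.57% fell. *Ccng1* encodes cyclin G1, *Eda2r* a receptor of the tumour necrosis factor family, and *Perp* a membrane protein of cell junctions and cell death, which measured 2.06 and 2.09 CPM in CAF-vec against 0.221, 0.123 and 0.122 CPM in CAF-200. *Perp* entered the test only through CAF-vec, as no CAF-200 sample reached the 0.5 CPM required. The log2 fold change of *Perp* depended on the pseudocount, at -3.11 with 0.1 CPM and -1.41 with 1 CPM. *Trp53* measured 147.1 and 143.0 CPM in CAF-vec against 203.6, 186.1 and 206.3 CPM in CAF-200 (log2 fold change 0.45, limma adjusted *p* = 0.0179). *Mdm2*, which encodes the ubiquitin ligase of p53, had overlapping groups (log2 fold change 0.069, limma adjusted *p* = 0.813). The median of the list was 0.17. After centring on sample medians, 4 of the 21 genes rose, against 5.91% of all genes tested.

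Of 17 genes for the turnover of cyclins and inhibitors, *Skp2* and *Dtl* rose and none fell, against 4.45% and 5.57% of all genes tested. *Skp2*, the F-box protein that marks p27 for degradation, measured 8.66 and 8.78 CPM in CAF-vec against 14.0, 13.5 and 14.0 CPM in CAF-200 (log2 fold change 0.64, limma adjusted *p* = 0.00714). *Dtl*, the substrate receptor through which p21 is degraded in S phase, had a log2 fold change of 1.21 (limma adjusted *p* = 0.00302). The median of the list was 0.0016. Of 12 Polycomb regulators of the *Cdkn2a* locus, *Ezh2*, the methyltransferase of histone H3 lysine 27, rose (log2 fold change 0.89, limma adjusted *p* = 0.0072), and *Kdm6b*, a demethylase of the same mark, fell (-0.67, adjusted *p* = 0.00835), 1 of 12 in each direction against the same background. *Kdm6b* missed the threshold after quantile normalization (-0.60, limma adjusted *p* = 0.0125) and after centring (-0.57, adjusted *p* = 0.0168). *Bmi1*, a Polycomb repressor of *Cdkn2a* named here after its values were seen, had overlapping groups and a log2 fold change of 0.034 (limma adjusted *p* = 0.825). At an adjusted *p* under 0.05 (limma), 3 of the 12 were higher and 3 lower, against 11.9% and 18.6% of all genes tested. Besides *Ezh2* and *Kdm6b*, these were *Suz12* (0.40) and *Eed* (0.67), higher, and *Cbx7* (-0.45) and *Cbx8* (-0.99), lower. They too were named after their values were seen. The median of the list was -0.11, with 6 genes higher and 6 lower.

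**Figure D4:**
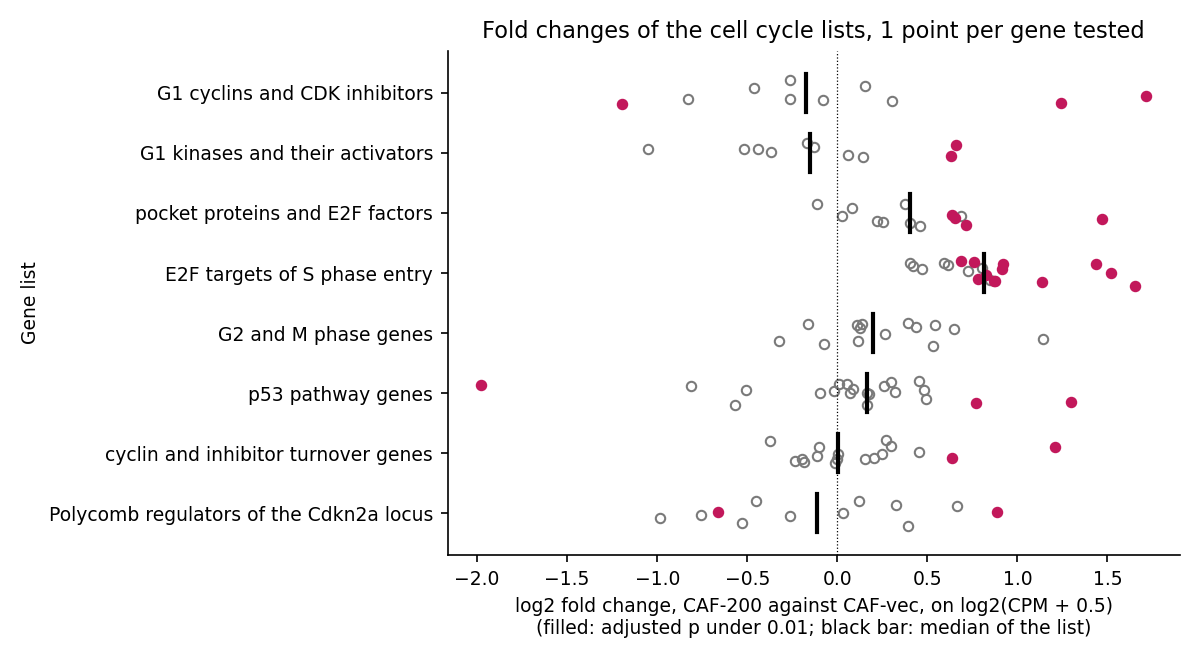
Log2 fold change of CAF-200 against CAF-vec on log2(CPM + 0.5), 1 point per gene tested, for the G1 cyclins and CDK inhibitors and the 7 other lists (rows). Filled red points have an adjusted *p* under 0.01 and black bars mark the list medians, which run from -0.17 for the G1 cyclins and CDK inhibitors to 0.82 for the E2F targets.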

How the data were processed

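Stranded mRNA libraries of 2 CAF-vec and 3 CAF-200 samples were sequenced as paired-end reads. The submitters' processing notes name FastQC, cutadapt, Trimmomatic, STAR, RSEM, edgeR and GRCm38 (mm10), without versions. The authors deposited normalized CPM values in a table named for TMM (trimmed mean of M values). Columns summed to 999956 to 1000111 CPM. The commonest low value was 0.00912 to 0.0105 CPM, values were not whole multiples of it, and 788 to 1100 values per CAF-200 sample lay above 0 but under 0.001 CPM, against 0 in CAF-vec, so whole reads were not recovered and count tests were not run. Each of the 3 CAF-200 columns held 15708 genes above 0, against 13937 and 14422 in CAF-vec 1 and CAF-vec 2. The low values thus differed in form between the groups. The part of this difference in the results, and in the closeness of the CAF-200 samples, was not tested. All 5 sample columns were used and 0 left out.

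Genes that reached 0.5 CPM in 2 or more samples entered a fit on log2(CPM + 0.5), which understates the changes of low genes, with limma 3.58.1 in R 4.3.3 (variance trend, Benjamini-Hochberg adjustment). Genes passed at an adjusted *p* under 0.01, whereas the study also required a log2 fold change beyond 1. The fit was also run on simulated data, and its outcome there is not given here. GENCODE M21 named 21795 genes and gave coordinates, exon lengths and 3′-UTRs. The strand setting of the counting is not given in the sources used here, so overlapping genes on opposite strands are uncertain. The 10 genes and the lists were chosen with earlier results of these data known. Named genes are the 10, *Ccnd3*, *Cdkn2d*, *Rb1*, *Trp53*, *Mdm2*, *Skp2*, *Zeb1*, *Zeb2*, and the genes of each list that passed (the 4 largest changes where more than 6 passed, and any past both thresholds). A gene that this rule names is not reported here. For *Zeb2* the log2 fold change was -0.23 (limma adjusted *p* = 0.374). Python 3.11.15, pandas 2.3.3, numpy 2.4.6 and matplotlib 3.10.9 were used. Alternatives were other pseudocounts (0.1 and 1), filters, scalings, variance models, an adjusted *p* of 0.05, the replicate number as a block, and each sample left out.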

Additional observations from a re-analysis of the deposited data

How the results depend on the processing

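Depth is unknown, and each group has few samples, which limits what can pass. The DESeq2 and edgeR alternatives were not run, since whole reads were not recovered. *Ccne1* and *Ccne2* stayed higher and *Cdkn2a*, *Cdkn2b* and *Cdkn2c* lower in every alternative run, with adjusted *p* from limma of 1.315e-05 to 0.0257 for *Ccne1*, 5.106e-05 to 0.0376 for *Ccne2*, 6.446e-05 to 0.0361 for *Cdkn2b* and 1.248e-05 to 0.0696 for *Cdkn2a*. Unless a cause is named, the cause of a changed call was not tested.

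Without a filter on low values more genes were tested, 4.51% of them passed (2.16% higher) against 10.0% (4.45% higher) with the filter, and of the 10 genes 1 was higher and 0 lower. *Ccne2* (log2 fold change 1.72, adjusted *p* = 0.0118, limma) and *Cdkn2b* (-1.20, adjusted *p* = 0.0107) then missed the threshold. The counts higher were 0 for the G1 kinases, 2 for the pocket proteins and E2F factors, 6 for the E2F targets, 1 for the p53 genes, 1 for the turnover genes and 0 for the Polycomb genes, with 0 Polycomb genes lower. With array weights by group 1.25% of all genes passed (0.747% higher), of the 10 genes 1 was higher and 0 lower, *Ccne2* (1.72, adjusted *p* = 0.0258, limma) and *Cdkn2b* (-1.20, adjusted *p* = 0.0273) missed the threshold, and the lists gave 0 G1 kinases, 1 pocket protein or E2F factor, 4 E2F targets, 0 p53 genes, 1 turnover gene and 0 Polycomb genes higher, with 0 p53 and 0 Polycomb genes lower. Without the variance trend 1 G1 kinase gene was higher. After quantile normalization 2 of the 10 genes were lower, as *Cdkn2a* (-0.72) passed, with 4 G2 and M genes higher and 0 Polycomb genes lower. After centring on sample medians 2 G2 and M genes and 4 p53 genes were higher, 0 Polycomb genes were lower, and *Cdkn1c* was at 0.015. The genes passing were higher in 44.4% of cases as deposited, 54.0% after quantile normalization, 57.0% after centring and 59.9% with array weights, and over all genes tested the median difference on the log2 scale was -0.094, -0.016 and 0.0027 as deposited, after quantile normalization and after centring. With a pseudocount of 0.1 CPM 2 p53 genes were lower, and with at least 1 CPM in every sample 0 were. At an adjusted *p* under 0.05, which 11.9% of all genes passed upwards and 18.6% downwards, 2 of the 10 genes were lower, among them *Cdkn2a* (-0.83), with 1 G1 kinase gene lower, 6 G2 and M genes higher, 4 p53 genes higher and 2 lower, 4 turnover genes higher and 1 lower, and 3 Polycomb genes higher and 3 lower.

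Samples 1 and 2 of both groups share a number in the labels. Their deviations from the group means correlated at 0.249 and 0.134 across genes, and with only 2 pairs the number is not shown to pair the samples. With the number as a replicate block, 171 genes passed against 1220 without it, 59.1% of them higher. Of the 10 genes 1 was then higher and 0 lower, with *Ccne1* at 1.21 (adjusted *p* = 0.0119, limma), *Cdkn2b* at -1.10 (adjusted *p* = 0.0209) and *Cdkn1c* at 0.0077. Under the block 2 E2F targets were higher, and 0 G1 kinases, pocket proteins and E2F factors, p53 genes, turnover genes and Polycomb genes, with 0 Polycomb genes lower.

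Leaving out 1 sample at a time gave 0 to 3 of the 10 genes higher and 0 to 4 lower. The counts higher and lower were 0 to 2 and 0 to 5 for the G1 kinases, 0 to 7 and 0 for the pocket proteins and E2F factors, 0 to 20 and 0 for the E2F targets, 0 to 8 and 0 to 2 for the G2 and M genes, 0 to 9 and 0 to 4 for the p53 genes, 0 to 7 and 0 to 3 for the turnover genes, and 0 to 4 and 0 to 4 for the Polycomb genes. All genes passing numbered 0 or 1 without a CAF-200 sample (3816 to 4058 at an unadjusted *p* under 0.05), 3592 without CAF-vec 1 and 6095 without CAF-vec 2. In the last pair of fits the single CAF-vec sample is assumed to vary like the CAF-200 samples. Log2 fold changes ran from 0.13 to 0.49 for *Cdkn1a*, -0.40 to -0.12 for *Cdkn1b*, -0.51 to 0.040 for *Cdkn1c*, -1.07 to -0.59 for *Cdkn2a*, -1.37 to -1.03 for *Cdkn2b*, -0.41 to -0.12 for *Cdkn2c*, -0.0051 to 0.31 for *Ccnd1*, -1.06 to 0.13 for *Ccnd2*, 1.21 to 1.28 for *Ccne1* and 1.44 to 1.99 for *Ccne2*. *Cdkn1c* turned to 0.040 without CAF-200 replicate 2 and 0.0077 without CAF-200 replicate 3. *Mdm2* ran from -0.28 without CAF-vec 2 to 0.42 without CAF-vec 1, and *Zeb2* from -0.54 without CAF-vec 2 to 0.083 without CAF-vec 1. *Cdkn1c* was too low to test without CAF-vec 1, without CAF-200 replicate 1, or with the stricter filter. *Perp* was too low without CAF-vec 1, without CAF-vec 2 or with the stricter filter, so the p53 counts of those fits leave it out. Of 37 other genes that passed or were fixed by name, not all of them named above, 30 lost their call without each CAF-200 sample in turn, 24 under the block, 20 with array weights and 16 without a filter.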
